A study of Mus with 18 samples.

Results

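The tumour suppressor p53 and the inhibitors that brake the cell cycle were followed through LPS inflammation in 10 genes, namely Trp53, Mdm2, Ccng1, Cdkn1a, Cdkn1b, Cdkn1c, Cdkn2a, Cdkn2b, Gadd45a and Gadd45b. They were chosen by name for their function, with earlier results of these data known. All 10 were found once in each of the FPKM tables, which list 21401 gene symbols. FPKM divides reads by the length of the transcript and by the reads of the library, so levels could be compared between genes.

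The RNA-seq libraries came from wild-type mouse material in 2 experiments, each with 3 control, 3 LPS and 3 LPS-MIC-1 libraries. In the first, libraries labelled as C2C12 myoblasts, an immortalised mouse line of muscle precursors, were from a saline vehicle control, from LPS (lipopolysaccharide, a bacterial endotoxin) at 1 μg/mL, or from LPS at 1 μg/mL with MIC-1 (moringa isothiocyanate-1, a plant isothiocyanate) at 10 μM for 24 h. The labels and the study's methods differ in the MIC-1 concentration given to the cells, and the label's value is used here. In the second, gastrocnemius was taken from male C57BL/6 mice given saline vehicle, or injected intraperitoneally with LPS at 10 mg/kg, or gavaged with MIC-1 at 80 mg/kg in DMSO daily for 3 days and then injected with LPS at 10 mg/kg. Muscle was collected 16 h after LPS, and the age of the mice is not given in the sources used here. No group received MIC-1 without LPS, and the sources differ on the vehicle, which is saline in the labels, ethanol for the cells in the study's methods and oral DMSO for the control mice in its figure legend. The study used more mice than muscle libraries, and whether animals were pooled is not given in the sources used here. Nothing in the labels says that the C2C12 libraries came from separate cultures, so their p-values measure the spread between libraries, which may be technical.

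Cells that sense damaged DNA or other stress stabilise p53, a transcription factor kept scarce by the ubiquitin ligase Mdm2, which is itself a p53 target. Cyclin-dependent kinases drive division and are held back by the Cip/Kip inhibitors (Cdkn1a, Cdkn1b and Cdkn1c) and by the Ink4 inhibitors (Cdkn2a and Cdkn2b). Cdkn1a and Gadd45a are induced by p53 and also by other stress and inflammatory signals. In muscle precursors Cdkn1a and Cdkn1c accompany the exit from the cell cycle.

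The C2C12 label did not match the defining markers in 6 of the 9 libraries. The 19 macrophage markers found of 20 summed to between 10367 and 10396 FPKM in the control libraries, between 7350 and 7540 in the LPS libraries, and between 80.4 and 282 in the LPS-MIC-1 libraries. The 11 myoblast markers reached sums of 1.13 to 1.59 FPKM with control, of 2.56 to 4.60 with LPS and of 1087 to 1378 with LPS-MIC-1, and 4 of them were listed at 0 in every control library. Lyz2, the lysozyme of phagocytes, had a mean of 4694 FPKM in control and 17.1 in LPS-MIC-1, whereas Des, the muscle intermediate filament protein, had 0.126 and 398. LPS-MIC-1 replicate 1 carried the most macrophage signal of its group, with 282 FPKM against 80.4 and 91.4 in the other two. The effect of MIC-1 and this difference in cell identity cannot be told apart in either comparison of LPS-MIC-1 for the C2C12-labelled libraries, whereas control and LPS shared the macrophage profile. The gastrocnemius libraries matched their label, although the muscle fibre marker sum also moved with the groups, with 244982 to 250026 FPKM for control, 232431 to 236168 for LPS, and 185090 to 199545 for LPS-MIC-1. The fibre marker median per library was highest in LPS-MIC-1, at 12685 to 14078 FPKM. It was 10017 to 10900 in control and 10696 to 11127 in LPS. The endothelial marker sum was 132 to 135 FPKM for control, 85.1 to 89.2 for LPS, and 107 to 117 for LPS-MIC-1. The part of these sums in the muscle results was not tested. Of these 9, LPS-MIC-1 replicate 3 stood apart, with macrophage markers summing to 213 FPKM against 50.9 and 53.2 in the other two. Control libraries had sums of 31.4 to 37.3 and LPS libraries of 48.5 to 51.1. The macrophage median per library was 1.25 to 5.33 FPKM in LPS-MIC-1, 0.573 to 0.692 in control and 0.621 to 0.751 in LPS. Neutrophil markers summed to 14.9 to 20.04 FPKM in LPS-MIC-1 against 1.76 to 2.74 in the other groups. Relative to the first control library, depth read from the spacing of low values ran from 0.465 in LPS-MIC-1 replicate 3 to 1.02 in the C2C12-labelled libraries and from 0.988 to 1.11 in muscle.

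Groups were compared on log2(FPKM + 0.1) with limma, for genes with a mean over 1 FPKM in the 9 libraries of an experiment. A gene was called with an absolute log2 fold change over 1 and a Benjamini-Hochberg adjusted p under 0.001 in the C2C12-labelled libraries or under 0.05 in muscle. Below, a gene is said to have risen or fallen where its adjusted p passed that threshold at any fold change. The filter kept 7 members of 10 in the C2C12-labelled libraries and 9 of 10 in muscle. The 3 comparisons of an experiment share groups and are not independent of each other.

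Most of the stress genes were higher with LPS in the C2C12-labelled libraries, whereas differences in muscle were small. In the C2C12-labelled libraries, 4 of the 7 tested members were called higher in LPS than in control (Mdm2, Cdkn1a, Gadd45a and Gadd45b), against 10.9% of the 10877 genes tested. At the adjusted p alone, 5 rose and 1 fell, against backgrounds of 18.6% and 19.3%. The median log2 difference of the 7 was 2.21, beside 0 over all genes tested. In muscle, limma called 0 of the 9 tested members in either direction, with 0.654% of the 9475 genes tested called higher and 0.591% lower. With an unadjusted p under 0.05, 1 member passed the fold threshold (Cdkn2b, higher) and 6 differed at any fold, 5 of them higher. By the same unadjusted p, 0.96% of all 9475 genes were higher and 0.992% lower past the fold threshold, and 15.4% were higher and 14.2% lower at any fold. By the adjusted p alone 4 members rose (Mdm2, Ccng1, Gadd45a and Gadd45b), against 8.25% of all genes higher and 7.48% lower, and the median difference was 0.21 over the 9 members beside 0.01 over all genes.

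In LPS-MIC-1 against LPS, 5 of the 7 tested members fell and Trp53 rose in the C2C12-labelled libraries. There MIC-1 and cell identity cannot be told apart, and the Trp53 rise reversed to -0.022 under quantile normalization. In muscle Cdkn1a and Gadd45a rose and Trp53 fell. LPS-MIC-1 had 3 of 7 members called lower than LPS in the C2C12-labelled libraries (Mdm2, Cdkn1b and Gadd45b), against 25.6% of all genes tested, a large background. Counting the adjusted p alone gave 5 lower and 1 higher, with backgrounds of 33.7% and 32.8%. In muscle 2 of 9 members were called higher than in LPS (Cdkn1a and Gadd45a), against 9.67% of genes, and 1 was called lower (Cdkn2b), against 5.44%. By the adjusted p alone, 3 rose and 4 fell, with backgrounds of 28.3% and 28.2%. Against control, LPS-MIC-1 had 3 of 7 members called higher in the C2C12-labelled libraries (Cdkn1a, Gadd45a and Gadd45b), with a background of 21.1%. In muscle the same comparison called Cdkn1a and Gadd45a higher, 2 of 9 against 9.33%, and Cdkn2b lower, 1 of 9 against 6.12%. At the adjusted p alone, 3 rose and 1 fell in the C2C12-labelled libraries (backgrounds 29.9% and 30.5%), and 4 rose and 3 fell in muscle (30% and 28.5%).

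**Figure D1:**
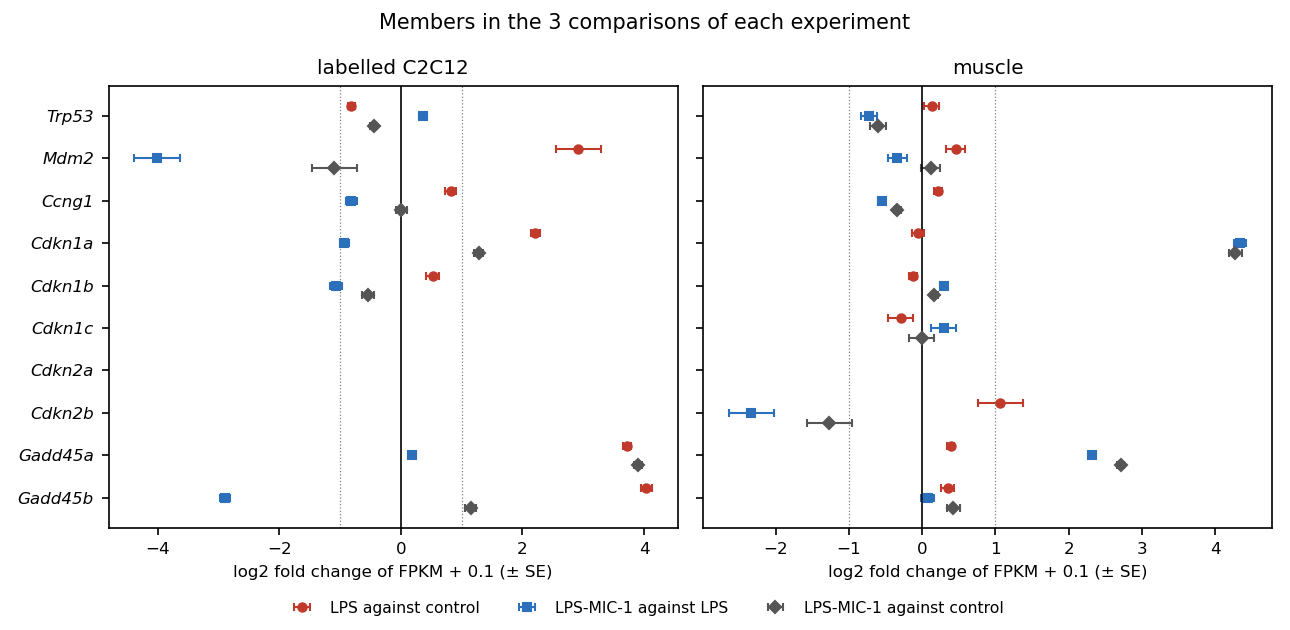
Log2 fold changes of FPKM + 0.1 (x axis, ± SE from limma) for the 10 genes (y axis) in the C2C12-labelled libraries (left) and muscle (right), with circles for LPS against control, squares for LPS-MIC-1 against LPS, diamonds for LPS-MIC-1 against control and dotted lines at the fold threshold. On the left the LPS circles of Mdm2, Cdkn1a, Gadd45a and Gadd45b lie between 2.21 and 4.04, and on the right Cdkn1a stands at 4.34 against LPS while its circle lies at -0.06.

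Trp53, which encodes p53, was abundant in the C2C12-labelled libraries. Its level was 196, 201 and 186 FPKM in control, 108, 112 and 112 in LPS, and 139.8, 132 and 156 in LPS-MIC-1 (194 ± 7.55, 111 ± 2.11 and 143 ± 12.6, mean ± SD, n = 3). The groups did not overlap, with control highest and LPS lowest. Trp53 fell with LPS by 0.81 on the log2 scale (SE 0.0650, adjusted p 1.40e-05). It was 0.36 higher in LPS-MIC-1 than in LPS (adjusted p 0.000876), a rise that reversed to -0.022 under quantile normalization and missed the threshold in 11 of 16 alternatives, as when a single control or LPS library or LPS-MIC-1 replicate 1 was left out (adjusted p up to 0.00471 for these). It was 0.45 lower in LPS-MIC-1 than in control (log2 difference -0.45, adjusted p 0.000263). This no longer passed the adjusted p without control replicate 1 or 2 or LPS-MIC-1 replicate 1 (0.00118 to 0.00172).

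In muscle Trp53 stood lower, at 20.5, 20.8 and 18.4 FPKM in control, 20.6, 22.3 and 22.1 in LPS, and 11.2, 12.8 and 15.5 in LPS-MIC-1. Control and LPS overlapped (log2 difference 0.13, SE 0.108, adjusted p 0.488), and every LPS-MIC-1 library lay below both. Trp53 fell by 0.73 against LPS (adjusted p 0.000549) and by 0.60 against control (adjusted p 0.00155). The highest of the LPS-MIC-1 values belonged to replicate 3, the library with the most macrophage signal, and without it the difference against LPS was -0.85 (adjusted p 0.000107).

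Mdm2, the ligase that marks p53 for degradation, fell furthest of the members between LPS and LPS-MIC-1 in the C2C12-labelled libraries. It stood at 25.6, 25.1 and 26.0 FPKM in control and at 194, 194 and 193 in LPS, but at 20.8, 6.02 and 13.6 in LPS-MIC-1. LPS lay above both other groups without overlap, and the LPS-MIC-1 libraries spread over a range wider than their mean. Mdm2 was 2.92 log2 units higher in LPS than in control (SE 0.373, adjusted p 0.000208), a call that 10 of 16 alternatives kept and that was lost on leaving out any single library of control or LPS (adjusted p 0.00126 to 0.00129). With only the 6 libraries compared, leaving the wide LPS-MIC-1 spread out of the estimate, its adjusted p was 1.00e-09, and the range over the 16 alternatives was 1.00e-09 to 0.00129. Mdm2 fell by 4.01 log2 units in LPS-MIC-1 against LPS (adjusted p 1.43e-05), and its difference from control of -1.09 did not pass (adjusted p 0.0253).

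In muscle Mdm2 varied within a narrow range. It was 11.5, 9.35 and 13.0 FPKM in control, 15.3, 17.0 and 13.9 in LPS, and 11.9, 13.3 and 11.1 in LPS-MIC-1, so that every LPS library lay above every other library by a small margin. It rose with LPS by 0.46 (SE 0.129, adjusted p 0.0477) and fell by 0.34 in LPS-MIC-1 against LPS (adjusted p 0.0496). Both lay at the threshold, and 12 of 16 alternatives lost the first and 8 of 16 the second, among them leaving out LPS replicate 1 or 2 or control replicate 1 (adjusted p 0.0672 to 0.152). Other libraries whose removal lost the first were control replicate 2, LPS replicate 3 and each LPS-MIC-1 replicate (0.0540 to 0.111), and LPS-MIC-1 replicates 1 and 3 lost the second (0.110 to 0.142).

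Ccng1, the p53-induced cyclin G1, was the most abundant member in every muscle group. In muscle it measured 249, 243 and 264 FPKM in control, 292, 286 and 298 in LPS, and 214, 193 and 191 in LPS-MIC-1. The 3 groups did not overlap, with LPS highest and LPS-MIC-1 lowest. It rose with LPS by 0.21 (SE 0.0491, adjusted p 0.0218), which was lost without control replicate 1 or 2 or LPS replicate 1 or 3 (0.0661 to 0.0751). Ccng1 fell in LPS-MIC-1 by 0.55 against LPS (adjusted p 2.65e-05) and by 0.34 against control (adjusted p 0.000458), below the fold threshold in both. In the C2C12-labelled libraries it was at 28.9, 28.3 and 28.7 FPKM in control, 50.01, 51.3 and 50.5 in LPS, and 25.9, 27.2 and 33.7 in LPS-MIC-1. It rose with LPS by 0.82 (SE 0.0892, adjusted p 8.21e-05) and fell by 0.81 between LPS and LPS-MIC-1 (adjusted p 4.10e-05), while control and LPS-MIC-1 overlapped (log2 difference 0.01, adjusted p 0.957).

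Cdkn1a encodes p21, the inhibitor of cyclin-dependent kinases most closely tied to p53. In the C2C12-labelled libraries it was at 119.7, 123 and 119 FPKM in control, 555, 564 and 553 in LPS, and 281, 268 and 330.3 in LPS-MIC-1. All 3 groups stood apart, and the LPS-MIC-1 libraries lay between the other groups. Cdkn1a rose with LPS by 2.21 log2 units, or 4.63-fold (SE 0.0733, adjusted p 1.50e-07), and was the most abundant member there. It fell in LPS-MIC-1 against LPS by 0.93 (adjusted p 4.93e-06), just short of the fold threshold. LPS-MIC-1 lay 1.28 above control (adjusted p 7.80e-07), and its cell markers differed from those of both other groups. Whether each of these differences was called turned on the scaling. Quantile normalization gave -1.15 against LPS, past the fold threshold, and 0.83 against control, below it. Without LPS-MIC-1 replicate 3 the difference from LPS was -1.02 and was called.

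In muscle Cdkn1a was highest in LPS-MIC-1. It measured 6.22, 7.54 and 7.06 FPKM in control, 7.35, 6.30 and 6.27 in LPS, and 136, 137 and 135 in LPS-MIC-1. Control and LPS overlapped (log2 difference -0.06, adjusted p 0.671), and the LPS-MIC-1 libraries lay within 1 FPKM of their mean. The rise was 4.34 log2 units against LPS, or 20.2-fold (SE 0.0830, adjusted p 3.36e-09), which placed Cdkn1a 61st among the 9475 genes ranked by rise. Against control it was 4.28, or 19.4-fold (adjusted p 3.10e-09). Without LPS-MIC-1 replicate 3, the library with the largest macrophage sum, the difference from LPS was 4.34. The macrophage medians and neutrophil sums given above were higher in every LPS-MIC-1 library, and their part in the Cdkn1a level was not tested. In bulk tissue, more cells of a type and more RNA per cell cannot be told apart.

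**Figure D2:**
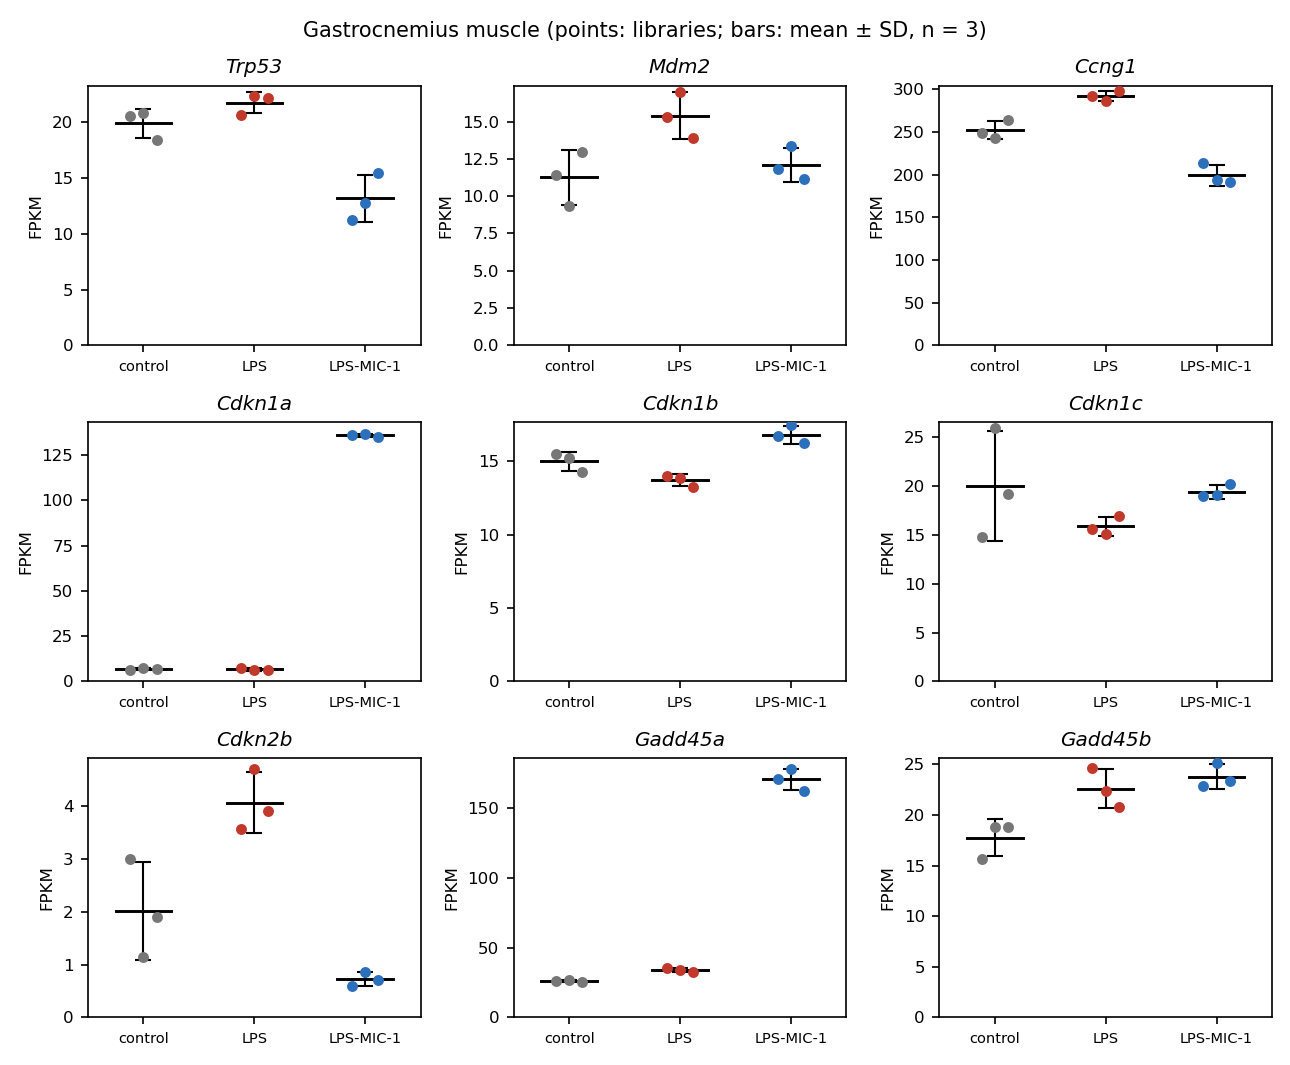
FPKM (y axes, from 0) of the 9 tested members in gastrocnemius by group, with points for single libraries and bars for the mean ± SD (n = 3). Cdkn1a stands at 135 to 137 FPKM in LPS-MIC-1 against 6.22 to 7.54 elsewhere, Gadd45a at 163 to 178 against 25.4 to 35.5, and Cdkn2b is lowest in LPS-MIC-1.

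Cdkn1b encodes p27, which keeps quiescent cells from entering the cycle. The C2C12-labelled libraries held 21.2, 21.8 and 22.2 FPKM in control, 32.4, 31.0 and 30.5 in LPS, and 15.4, 12.6 and 17.1 in LPS-MIC-1. LPS was highest and LPS-MIC-1 lowest without overlap. The difference of LPS from control was 0.52 (SE 0.101) and did not pass at an adjusted p of 0.00216 (0.000124 without LPS-MIC-1 replicate 2, 0.000586 without replicate 3, and 1.02e-05 to 0.0103 over 16 alternatives). Cdkn1b fell by 1.06 in LPS-MIC-1 against LPS (adjusted p 1.66e-05), a fold that was 0.94 without LPS-MIC-1 replicate 2 and 0.97 under quantile normalization (log2 differences -0.94 and -0.97) and so no longer called. Against control the difference of -0.54 did not pass (adjusted p 0.00124), although it did without LPS-MIC-1 replicate 2 or 3 (0.000472 and 0.000281).

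In muscle Cdkn1b moved the other way within a small range. It was 15.5, 15.3 and 14.3 FPKM in control, 14.0, 13.9 and 13.3 in LPS, and 16.7, 17.5 and 16.3 in LPS-MIC-1. All LPS libraries lay under all control libraries (log2 difference -0.13, SE 0.0508, adjusted p 0.139, which did not pass) and all LPS-MIC-1 libraries above them. Cdkn1b rose by 0.29 against LPS (adjusted p 0.00137) and by 0.16 against control (adjusted p 0.0227). The second was 0.03 under quantile normalization (adjusted p 0.619) and was lost without control replicate 3 or LPS-MIC-1 replicate 2 (0.0751 and 0.0741).

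Cdkn1c, the imprinted inhibitor p57, was detected in muscle but hardly in the C2C12-labelled libraries. There it was listed at 0 in 8 of 9 libraries, with 0.523 FPKM in LPS-MIC-1 replicate 2. In muscle it measured 14.8, 26.0 and 19.2 FPKM in control, 15.6, 15.1 and 17.0 in LPS, and 19.0, 19.1 and 20.3 in LPS-MIC-1. The control libraries spanned the values of both other groups. No difference passed, with -0.30 for LPS against control (SE 0.171, adjusted p 0.293), 0.29 for LPS-MIC-1 against LPS (0.181) and -0.00 for LPS-MIC-1 against control (0.985). Control replicates 1 and 2 decided this, since LPS against control passed without the first (-0.49, adjusted p 0.0446) and LPS-MIC-1 against LPS without the second (0.29, 0.0367). Every LPS-MIC-1 library lay above every LPS library, and with only the 6 libraries compared that difference passed (0.29, adjusted p 0.00749).

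The Ink4 genes lie next to each other on chromosome 4 in the RefSeq mouse annotation, and they were at 0 in the C2C12-labelled experiment. Cdkn2a, which encodes both an Ink4 inhibitor and the Arf protein that restrains Mdm2, and Cdkn2b, the other Ink4 inhibitor, were each listed at 0 in all 9 of these libraries. In muscle Cdkn2a was at 0, 0.332 and 0 FPKM in control, 0.113, 0.227 and 0.224 in LPS, and 0, 0 and 0.09999 in LPS-MIC-1. If the smallest step is 1 read, these values are 0, 3 and 0 reads, then 1, 2 and 2, then 0, 0 and 1, too few to compare, and Cdkn2a was not tested.

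Cdkn2b in muscle was at 2.99, 1.15 and 1.90 FPKM in control, 3.57, 4.71 and 3.92 in LPS, and 0.601, 0.868 and 0.713 in LPS-MIC-1. The groups did not overlap, with LPS highest and LPS-MIC-1 lowest, the order also seen for Ccng1. The difference of LPS from control was 1.06 (SE 0.307) and just missed the threshold (adjusted p 0.0511), with 1.39 and an adjusted p of 0.0142 without control replicate 1 (range 0.0142 to 0.144 over 16 alternatives). It fell in LPS-MIC-1 by 2.34 against LPS, or 5.05-fold (adjusted p 0.000266), the 70th deepest fall of 9475 genes. Against control it fell by 1.27 (adjusted p 0.00732), which was under the fold threshold without control replicate 1 and with a pseudocount of 1. At these low levels a fold depends on the pseudocount, and with a pseudocount of 1 the difference from LPS was -1.55.

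Gadd45a, a stress sensor that binds cyclin-dependent kinases and stress kinases, rose in both experiments. The C2C12-labelled control libraries had 2.56, 2.44 and 2.55 FPKM, the LPS libraries 34.2, 33.3 and 35.2, and the LPS-MIC-1 libraries 37.7, 36.9 and 42.3. The rise with LPS was 3.71 log2 units, or 13.1-fold (SE 0.0652, adjusted p 1.17e-08), and that of LPS-MIC-1 against control 3.90 (adjusted p 2.00e-09). The groups given LPS differed by 0.18, which did not pass (adjusted p 0.0280), although every LPS-MIC-1 library was above every LPS library. Both groups given LPS thus lay more than 10-fold above control, with the LPS-MIC-1 libraries slightly the higher. The cell markers of LPS-MIC-1 differed from those of both other groups, so treatment and cell identity cannot be told apart there.

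In muscle Gadd45a was at 26.0, 26.5 and 25.4 FPKM in control, 35.5, 34.3 and 32.3 in LPS, and 171, 178 and 163 in LPS-MIC-1. The 3 groups were apart in that order. It rose by 0.39 with LPS (SE 0.0475, adjusted p 0.00118), by 2.32 in LPS-MIC-1 against LPS, or 5.002-fold (adjusted p 4.41e-09), and by 2.71 against control, or 6.55-fold (adjusted p 1.87e-09). Without LPS-MIC-1 replicate 3 the difference from LPS was 2.36.

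Gadd45b, its relative that is strongly induced by inflammatory signalling, had the largest LPS change of the members in the C2C12-labelled libraries. Control libraries had 9.90, 10.9 and 11.2 FPKM, LPS libraries 173, 183 and 174, and LPS-MIC-1 libraries 26.6, 23.9 and 21.1. The rise with LPS was 4.04 log2 units, or 16.4-fold (SE 0.0872, adjusted p 2.75e-08). The fall in LPS-MIC-1 against LPS was 2.89 (log2 difference -2.89, adjusted p 2.09e-08). LPS-MIC-1 lay 1.15 above control (adjusted p 4.53e-06), and its cell markers differed from those of both other groups. In muscle it was at 15.6, 18.9 and 18.8 FPKM in control, 24.6, 22.4 and 20.8 in LPS, and 22.8, 25.2 and 23.4 in LPS-MIC-1. Both groups given LPS lay above control and overlapped each other (log2 difference 0.08, adjusted p 0.500). Gadd45b rose by 0.35 with LPS (SE 0.0897, adjusted p 0.0335), lost without control replicate 1 or LPS replicate 1 or 2 (0.0756 to 0.105), and by 0.42 in LPS-MIC-1 against control (adjusted p 0.00368).

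**Figure D3:**
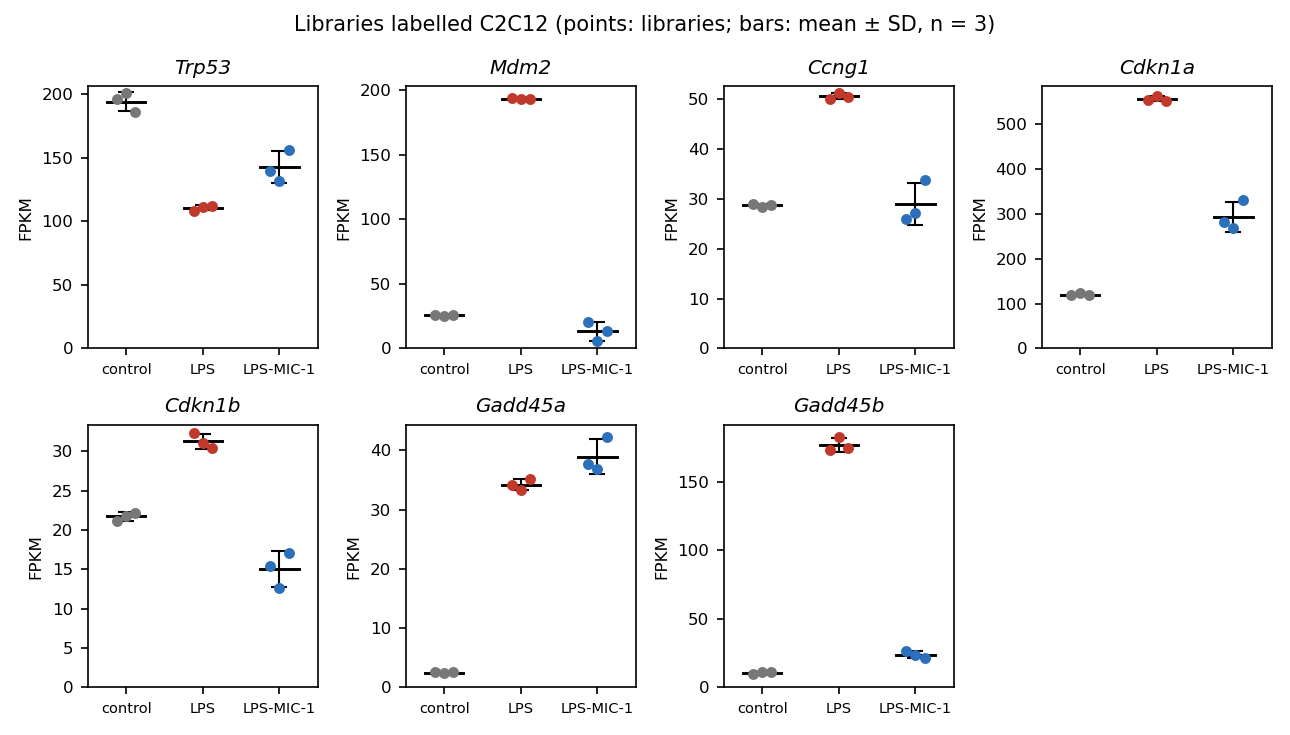
FPKM (y axes, from 0) of the 7 tested members in the C2C12-labelled libraries by group, with points for single libraries and bars for the mean ± SD (n = 3). Mdm2, Cdkn1a, Ccng1, Cdkn1b and Gadd45b are highest in LPS, Gadd45a is 33.3 FPKM or more in both groups given LPS against at most 2.56 in control, and Trp53 is highest in control.

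The order of levels within a group also changed. In the C2C12-labelled control libraries Trp53 led at 194 FPKM, followed by Cdkn1a at 120.3 and Ccng1 at 28.6, whereas in LPS Cdkn1a led at 557, followed by Mdm2 at 194 and Gadd45b at 177. Among the tested members, neighbours in both of these orders did not overlap. In LPS-MIC-1 Cdkn1a (293) and Trp53 (143) led, and Ccng1 overlapped Gadd45b, as Cdkn1b overlapped Mdm2. In muscle Ccng1 led every group and Gadd45a was next, though in control its libraries overlapped those of Cdkn1c. Cdkn1a moved from the eighth place in muscle control and LPS to the third in LPS-MIC-1 without overlap with its neighbours.

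Among 30 further genes known as p53 targets, 28 were tested in the C2C12-labelled libraries and 23 in muscle. With LPS the C2C12-labelled libraries had 8 called higher and 5 lower, against backgrounds of 10.9% and 10% (median log2 difference 0.49, beside 0 over all genes). Plk2, a stress-induced polo-like kinase, rose from 23.9 to 356 FPKM (3.90, adjusted p 6.10e-08), and Fas, a death receptor, rose from 0.684 to 8.14 (3.41, adjusted p 2.74e-06). Falls were led by Lrdd (2.14 log2 units, adjusted p 0.000248), the older symbol of the death-domain gene Pidd1, and by Gtse1, a G2 and S phase protein that restrains p53 (1.65 log2 units, adjusted p 2.71e-05). The Lrdd call was lost without any 1 control library or LPS replicate 1 or 3 (0.00130 to 0.00162). Its adjusted p passed in 11 of 16 alternatives and ran from 1.14e-05 to 0.00162. The Lrdd libraries ran from 4.81 to 5.44 FPKM in control and from 0.965 to 1.38 in LPS. Those of LPS-MIC-1, which enter the shared spread, ran from 3.92 to 8.89. Listed targets therefore moved in both directions under LPS.

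In LPS-MIC-1 against LPS the C2C12-labelled libraries had 7 of the 28 called higher and 10 lower, against 24.3% and 25.6% of all genes (median -0.60, beside -0.05). Phlda3, a p53-induced repressor of Akt signalling, rose from 9.11 to 245 FPKM (4.73, adjusted p 2.95e-09) and Lrdd from 1.11 to 6.53 (2.40, adjusted p 6.41e-05). Polk, a translesion DNA polymerase, fell from 8.05 to 0.140 FPKM (log2 difference -5.29, adjusted p 5.85e-06), and Dram1, a lysosomal regulator of autophagy, from 36.3 to 3.94 (-3.21, adjusted p 4.65e-07). Polk was near 0 in LPS-MIC-1, so its fold depends on the pseudocount and ran from -6.74 to -2.996 over the alternatives. Against control 8 were called higher and 7 lower, beside 21.1% and 22.1% of all genes (median -0.20, beside -0.06), led by Phlda3 (5.55) and Eda2r (3.71) among the rises and Dram1 (-4.31) and Polk (-3.85) among the falls. The Polk value against control ran from -5.27 to -1.79, and its call was lost with a pseudocount of 0.01 (adjusted p 0.00231). The change from macrophage to myoblast markers ran along the same 2 comparisons and cannot be told apart from them.

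In muscle LPS-MIC-1, 5 of the 23 tested targets were called higher than in LPS and 1 lower, against backgrounds of 9.67% and 5.44%. By the adjusted p alone 14 rose and 4 fell, against 28.3% and 28.2% (median 0.71, beside -0.01 over all genes). Btg2, an antiproliferative target of p53, was at 2.53, 2.00 and 1.96 FPKM in LPS and at 110.3, 116 and 112 in LPS-MIC-1, a rise of 5.65 log2 units or 50.2-fold (adjusted p 1.61e-09). Sesn1, a stress-induced inhibitor of mTORC1 signalling, went from 4.53, 3.64 and 3.76 FPKM to 55.5, 53.4 and 51.4 (3.72, 13.2-fold, adjusted p 8.66e-09). Like Cdkn1a and Gadd45a, both had LPS-MIC-1 libraries far above all others, and without LPS-MIC-1 replicate 3 their differences were 5.65 and 3.75. The neutrophil sum of 14.9 to 20.04 FPKM, against 1.76 to 2.74 elsewhere, and the lower muscle fibre sum moved with the same group. The fibre median was instead highest in that group. Against LPS, 0 of 15 fibre markers were called. By the adjusted p alone 2 of them rose and 10 fell (backgrounds 28.3% and 28.2%). The part of these marker differences in the rises was not tested. The single called fall was Sfn, the 14-3-3 sigma gene, from 2.25 to 0.956 FPKM (log2 difference -1.18, adjusted p 0.00394), which was short of the fold threshold with a pseudocount of 1 (-0.73) and without LPS replicate 3 (-0.99). Against control 6 were called higher and 1 lower, beside 9.33% and 6.12% of genes (median 0.59, beside 0.01), with Btg2 at 4.87, Sesn1 at 2.76 and Sfn at -1.31. With LPS alone 1 was called higher, against 0.654% of genes (Perp, a desmosomal membrane protein, 0.472 to 1.67 FPKM, 1.64, adjusted p 0.00165, but 0.86 and not called with a pseudocount of 1). By the adjusted p alone 2 rose and 5 fell, beside 8.25% and 7.48% (median -0.14, beside 0.01).

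**Figure D4:**
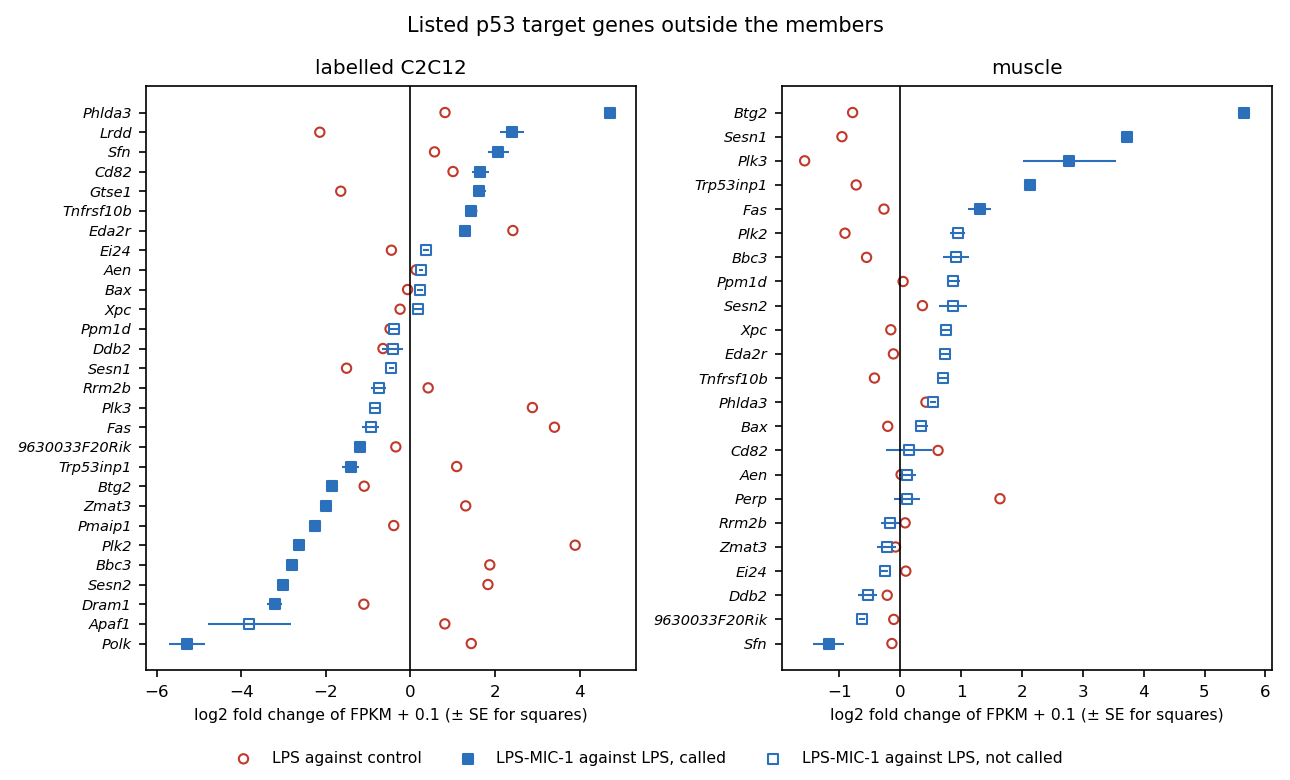
Log2 fold changes of FPKM + 0.1 (x axes) for the tested p53 targets outside the 10 genes (y axes) in the C2C12-labelled libraries (left, 28 genes) and muscle (right, 23 genes), with squares for LPS-MIC-1 against LPS (± SE, filled where called) and open circles for LPS against control. On the left 7 filled squares lie above 0 and 10 below, and on the right 5 lie above, led by Btg2 at 5.65 and Sesn1 at 3.72, and 1 below.

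Of 14 kinases, acetyltransferases and other regulators of p53, 13 were tested in the C2C12-labelled libraries, and 0 were called higher and 3 lower with LPS against backgrounds of 10.9% and 10%, led by the checkpoint kinases Chek1 (5.84 to 1.54 FPKM, log2 difference -1.88) and Atr (6.60 to 1.85, -1.78). The median was -0.31 beside 0 over all genes. In LPS-MIC-1 against LPS 1 was called higher (Chek1, 2.196) and 3 lower, led by the kinase Hipk2 (-2.70) and the acetyltransferase Ep300 (27.1 to 5.10 FPKM, -2.39), against 24.3% and 25.6% of all genes, with a median of -0.07 beside -0.05. By the adjusted p alone 3 rose and 3 fell, against 32.8% and 33.7%. Against control 3 were called lower, beside 22.1% of all genes, led by Ep300 (-1.90) and Chek2 (-1.24), with a median of -0.83 beside -0.06. Adjusted p-values of these named calls were at most 7.39e-05. In muscle 9 were tested and 1 was called lower in LPS-MIC-1 against LPS, where 5.44% of genes were, the p53-binding adaptor Trp53bp1 (2.43 to 1.22 FPKM, -1.10, adjusted p 0.0358), a call lost on leaving out any single library of control or LPS (0.0507 to 0.0806) and, by its fold of -0.58, without LPS-MIC-1 replicate 1.

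Related inhibitors of division outside the 10 genes were tested 10 of 10 in the C2C12-labelled libraries and 8 of 10 in muscle. With LPS 2 were called higher, the unusual cyclin Ccng2 (15.0 to 45.0 FPKM, 1.58) and the antiproliferative Btg1 (127 to 297, 1.22), and 1 was called lower, the pocket protein Rbl1 (19.9 to 7.24, -1.45), against backgrounds of 10.9% and 10% and with a median of 0.28 beside 0. The Ccng2 call (adjusted p 0.000242) was lost on leaving out any single library of those groups (0.00141 to 0.00151). Its adjusted p passed in 10 of 16 alternatives and ran from 1.80e-08 to 0.00151. The Ccng2 libraries lay close together in control (14.8 to 15.3 FPKM) and in LPS (44.96 to 44.99). Those of LPS-MIC-1, which enter the shared spread, ran from 2.21 to 4.43. In LPS-MIC-1 against LPS 2 were called higher and 4 lower, against 24.3% and 25.6% (median -0.47 beside -0.05). The third Gadd45 gene, Gadd45g, rose from 6.75 to 64.4 FPKM (3.20) and the Ink4 inhibitor Cdkn2c from 3.48 to 15.7 (2.11), whereas the pocket protein Rbl2 fell from 7.36 to 0.181 (-5.07) and Ccng2 from 45.0 to 3.18 (-3.84). Against control 2 were called higher and 5 lower, against 21.1% and 22.1% (median -1.05 beside -0.06), with Gadd45g at 3.76, Cdkn2c at 1.98, Rbl2 at -5.59 and the phosphatase Cdkn3 at -3.08. Rbl2 was near 0 in LPS-MIC-1, and its fold moved with the pseudocount, from -6.53 to -2.84 against LPS and from -7.05 to -3.31 against control over the alternatives. The Cdkn3 call (adjusted p 0.000235) was lost without any 1 control library or LPS-MIC-1 replicate 1 or 2 (0.00103 to 0.00144).

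In muscle 1 of the 8 was called higher and 1 lower in LPS-MIC-1, against LPS (backgrounds 9.67% and 5.44%) and against control (9.33% and 6.12%) alike. Btg1 rose from 3.40 FPKM in LPS to 7.21 (1.06, adjusted p 0.000121), and Tob1, another antiproliferative gene of the same family, fell from 184 to 55.7 (-1.72, adjusted p 1.08e-08). Against control Btg1 was at 1.14 and Tob1 at -1.22. The Btg1 fold lay at the threshold, and against LPS it was 0.96 without LPS-MIC-1 replicate 3, 0.90 under quantile normalization and 0.89 with a pseudocount of 1, so that it was no longer called, as against control with a pseudocount of 1 (0.96). The medians were 0.32 beside -0.01 against LPS and 0.17 beside 0.01 against control.

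A list of cyclins, cyclin-dependent kinases and the transcription factors E2f1, E2f2 and E2f3 was tested for 15 of 15 genes in the C2C12-labelled libraries. In muscle, where most were near 0, 5 of 15 were tested. With LPS 1 of the 15 was called higher and 8 lower, against backgrounds of 10.9% and 10% (median -1.31 beside 0). Cdkn1a, Gadd45a and Gadd45b were higher in the same libraries, and a link to the cyclins was not tested. Cyclin A2 (Ccna2) fell from 86.1 to 15.7 FPKM (-2.45, adjusted p 1.10e-05) and cyclin B2 (Ccnb2) from 91.0 to 16.7 (-2.44, adjusted p 3.33e-05), while cyclin D2 (Ccnd2) rose from 0.532 to 1.62 (1.44, adjusted p 3.20e-05, and 0.77 with a pseudocount of 1, under the fold threshold). For LPS-MIC-1 against LPS 7 were called higher and 1 lower, against 24.3% and 25.6% (median 0.82 beside -0.05), with Ccnd2 at 2.94 and the mitotic kinase Cdk1, from 6.10 to 46.2 FPKM, at 2.88, and with the S phase kinase Cdk2 at -1.23. Against control 2 were called higher (Ccnd2, 4.38, and Cdk1, 1.06) and 4 lower, led by Ccnb2 (-2.92) and cyclin B1 (Ccnb1, -2.43), against 21.1% and 22.1% and with a median of -0.04 beside -0.06. The Cdk1 call was under the fold threshold without LPS-MIC-1 replicate 1 or 3 and under quantile normalization (0.95 to 0.99). In muscle 2 of 5 were called lower in LPS-MIC-1 than in control, against 6.12% of genes, namely Ccnd1 (2.63 to 1.04 FPKM, -1.44, adjusted p 0.0185) and Ccnd2 (1.98 to 0.800, -1.22, adjusted p 0.000627), with a median of -0.40 beside 0.01. With a pseudocount of 1 both were under the fold threshold (-0.88 and -0.73). The Ccnd1 groups overlapped, as LPS-MIC-1 replicate 3 stood at 1.96 FPKM against 0.620 and 0.541 in the other two, and its call was lost without control replicate 1 or 3 or LPS-MIC-1 replicate 1 or 2 (0.0534 to 0.0623).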

How the data were processed

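RNA-seq libraries were pseudoaligned with kallisto and summarised per gene with tximport by the authors, who deposited FPKM values, 1 per gene symbol and library. Per the labels, the submitters' processing notes name mm9 as the genome build. The authors' DESeq2 tables hold fold changes and p-values of their own comparisons and were not used, nor were 9 unnamed columns of per-sample values in the muscle table. Reads per library are not given, and relative depth was read from the spacing of low FPKM values.

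Each experiment was fitted with limma 3.58.1 in R 4.3.3 (group means, eBayes with trend) on log2(FPKM + 0.1), for genes with a mean FPKM over 1, with p-values adjusted over all genes tested. The spread was shared over 9 libraries. In the C2C12-labelled libraries it was unequal. The median coefficient of variation, for genes over 10 FPKM, was 11.3% in LPS-MIC-1, 3.42% in control and 3.26% in LPS. The wide LPS-MIC-1 spread thus entered the tests of LPS against control. DESeq2 could not be repeated on FPKM. The steps were tested on simulated data that had the same spread in every group of a gene. That test therefore does not cover the unequal spread of the C2C12-labelled groups. Gene names and neighbours came from RefSeq (matched for 10 of 10 genes). Figures were drawn with matplotlib 3.10.9.

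The 10 genes and all lists were chosen with earlier results of these data known. All 10 are named, with the 2 largest called rises and falls of each pathway list per comparison and the most abundant markers. Other settings tried were a pseudocount of 1 or of 0.01, testing without an FPKM filter, median-ratio scaling, quantile normalization, only the 6 libraries compared, a replicate block, the adjusted p alone, and leaving out each library. An exact permutation test of 3 against 3 libraries cannot go below p = 0.1 and was not run.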

Additional observations from a re-analysis of the deposited data

Results flagged for a closer look

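In 5 contrasts a member moved in opposite directions in the C2C12-labelled libraries and in muscle, with groups that did not overlap in either experiment. The share of all genes meeting this rule was not computed, so the number is not read as a trait of the members. Differences were common among all genes. For LPS-MIC-1 against LPS, 32.8% rose and 33.7% fell by the adjusted p alone in the C2C12-labelled libraries. In muscle 28.3% rose and 28.2% fell. The difference between experiments was not tested in any of the 5 contrasts. The tables were processed apart, doses and times differ, and the C2C12-labelled control and LPS libraries carried macrophage markers. Values below are log2 fold changes. For LPS against control, Cdkn1b was at 0.52 in the C2C12-labelled libraries and at -0.13 in muscle, and neither passed its threshold. For LPS-MIC-1 against LPS, Trp53 was at 0.36 and -0.73, Cdkn1a at -0.93 and 4.34, and Cdkn1b at -1.06 and 0.29. For LPS-MIC-1 against control, Cdkn1b was at -0.54, which did not pass, and at 0.16, which was 0.03 under quantile normalization. The Trp53 value of 0.36 turned to -0.022 under quantile normalization.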

How the results depend on the processing

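Of 204 counts of members recomputed under the alternatives, 193 stayed within 1.5 times the reported count and 11 moved. With the adjusted p alone, the C2C12-labelled libraries had 1 member lower for LPS against control, 1 higher and 5 lower for LPS-MIC-1 against LPS, and 1 lower for LPS-MIC-1 against control, and muscle had 4 higher for LPS against control, 4 lower for LPS-MIC-1 against LPS, and 4 higher and 3 lower for LPS-MIC-1 against control. With a pseudocount of 1, 0 members were called lower in LPS-MIC-1 than in control in muscle. Leaving out 1 library gave 0 to 1 members higher in LPS than in control and 0 to 1 lower in LPS-MIC-1 than in control in muscle, both through Cdkn2b without control replicate 1, and in the C2C12-labelled libraries 3 to 4 higher in LPS than in control (Mdm2) and 2 to 4 lower for LPS-MIC-1 against LPS (Cdkn1b without LPS-MIC-1 replicate 2, Cdkn1a without replicate 3). Of 1632 recomputed fold changes of the named genes, 1528 kept their direction and side of the adjusted p threshold, 83 no longer passed it, 11 newly passed it, and 10 reversed. With the fold threshold also counted, 1573 kept their call or lack of one, 56 lost it and 3 gained it. Quantile normalization reversed Trp53 in LPS-MIC-1 against LPS (-0.022) and Ccng1 in LPS-MIC-1 against control (-0.028) in the C2C12-labelled libraries, and Gadd45b against LPS (-0.042) and Mdm2 against control (-0.028) in muscle LPS-MIC-1. Leaving out 1 library reversed values near 0 only, Ccng1 in LPS-MIC-1 against control in the C2C12-labelled libraries (-0.11 to 0.080), and in muscle Mdm2 (-0.013 to 0.22) and Cdkn1c (-0.20 to 0.20) in LPS-MIC-1 against control. The causes were not tested.

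Quantile normalization shifted the median of all muscle genes to -0.12 against LPS and to -0.10 against control in LPS-MIC-1, and the calls against LPS from 916 higher and 515 lower to 781 and 667. With a pseudocount of 1, the muscle counts over all genes were 37 higher and 34 lower (62 and 56 as reported) for LPS against control, 275 lower (515) for LPS-MIC-1 against LPS and 341 lower (580) against control. Without an FPKM filter LPS-MIC-1 against LPS had 798 lower and 1360 higher in muscle, and against control 915 lower and 1325 higher.

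Replicate numbers did not pair the libraries, as the deviations of same-numbered libraries correlated between -0.0757 and 0.0823 and 0 of 9 pairs per experiment passed 0.1. With a replicate block the member counts were as reported, and the genes that no longer passed the adjusted p were Trp53 against LPS (0.36, adjusted p 0.00357) and against control (-0.45, 0.00147) for LPS-MIC-1 in the C2C12-labelled libraries, and Mdm2 (0.46, 0.102) and Gadd45b (0.35, 0.0651) for LPS against control and Mdm2 (-0.34, 0.0937) for LPS-MIC-1 against LPS in muscle. Low genes such as Cdkn2a were not tested because of the FPKM filter, and their values rest on few reads, and 3 libraries per group limit the small muscle differences of Mdm2, Ccng1 and Gadd45b.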

Other observations

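Around the Ink4 genes, which were at or near 0 outside muscle Cdkn2b, the neighbour Mtap, a methionine salvage enzyme chosen after its values were seen, was detected in every library. Control, LPS and LPS-MIC-1 had 33.0 ± 1.74, 14.1 ± 0.171 and 72.2 ± 7.41 FPKM in the C2C12-labelled libraries (SD, n = 3), and 8.16 ± 0.326, 8.67 ± 0.402 and 7.16 ± 0.364 in muscle. Dmrta1, the gene on the other side of Cdkn2b in the RefSeq order, stayed at or under 0.174 FPKM in every library.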
